A study of Mus musculus with 26 samples.

Results

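Transcripts for 8 proteins that direct messenger RNA to decay were followed in mouse brown preadipocytes that differed in the insulin receptor they carried. The question was which of these related genes respond to 15 min of insulin, and in cells with which receptor. The 8 genes were named by symbol, not picked by a cut on their values, but with earlier results of these data known. The authors had already listed *Zfp36* among the genes raised by insulin here. These 8 genes comprise the zinc-finger genes *Zfp36*, *Zfp36l1*, and *Zfp36l2*, and the BTG and TOB genes *Btg1*, *Btg2*, *Btg3*, *Tob1*, and *Tob2*. They are 8 of 52962 genes in the table, and all 8 were among the 15402 genes that passed the low-count filter. The cells were preadipocytes, immortalized with SV40 T antigen, of newborn mice with floxed insulin receptor (IR) and IGF1 receptor (IGF1R) genes. Both genes had been inactivated with Cre in all the cells compared, giving the double-knockout (DKO) line. The other 4 lines were DKO cells with a retroviral human receptor, either full-length IR (B isoform), the kinase-dead K1030R mutant, ∆CT, a receptor cut short by 79 C-terminal amino acids, or JMO, a receptor with only 36 juxtamembrane amino acids left inside the cell. After 6 h without serum, dishes were left untreated (basal) or given 100 nM insulin for 15 min. Each of the 9 groups had 3 libraries except ∆CT with insulin, which had 2, and DKO cells were sampled in the basal state only. Without insulin-treated DKO cells, a rise in a receptor line cannot be told apart from one that needs no introduced receptor. Each receptor was studied in a single stably selected line, so that the libraries of a group measure the spread between samples of that line, and a difference between lines cannot be told apart from a difference between selected populations.

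ZFP36 proteins bind AU-rich stretches in the 3′ untranslated region (UTR) of messenger RNAs and recruit the CCR4-NOT complex, which shortens the poly(A) tail and thereby starts decay. BTG and TOB proteins bind the deadenylase subunits of the same complex, and the TOB proteins also bind the cytoplasmic poly(A)-binding protein, so that they bring deadenylation to many transcripts. *Zfp36*, which encodes tristetraprolin, and *Btg2* are classical early-response genes, whereas *Btg1* and *Tob1* are better known as genes of resting, non-dividing cells.

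Because ZFP36 proteins can bind their own messenger RNAs, the AU-rich sites of the genes that respond are shown first. In the 3′ UTR of the longest coding transcript, the 7-base element TATTTAT occurred 3 times in *Zfp36*, 3 times in *Zfp36l1*, and 3 times in *Zfp36l2*, once each in *Btg2* and *Tob2*, and not in *Btg1*, *Btg3*, or *Tob1*. Of 1616 transcripts with a 3′ UTR of similar length, 0.866% held the element at least as often as *Zfp36* did, whereas 42.1% of 2081 held it at least as often as *Btg2* did. The sites below are from GENCODE transcripts (GRCm38), 5′ to 3′ on the transcribed strand, with the element in capitals.
Zfp36, site 1: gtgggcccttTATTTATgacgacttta
Zfp36, site 3: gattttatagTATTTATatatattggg
Zfp36l1, site 1: tatcaaaacgTATTTATtgccaaacta
Zfp36l2, site 1: ctatttaactTATTTATtatcttgtga
Btg2, site 1: aatgaagagcTATTTATacatgttttt
These letters describe the transcripts, and binding at them was not measured.

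The promoters of the members were searched for motifs known from early-response genes, within the 250 bases before the RefSeq start (GRCm38.p6), for the 7 members whose promoter was given. *Zfp36l2* had none to search. The motifs, on both strands, were the CArG box bound by serum response factor, the cyclic AMP response element TGACGTCA, its half-site TGACG, which lies within it, the EGR site GCGNGGGCG, the AP-1 site TGANTCA, the ETS site CCGGAA, and the FOXO site TGTTTAC. *Zfp36* held a CArG box 58 bases before the start and an EGR site 105 bases before it, and *Btg2* held a cyclic AMP response element at 166 bases and an EGR site at 131 bases. Among 32817 promoter windows of this length, 1.47% held a CArG box, 1.55% the cyclic AMP response element, and 4.70% an EGR site. The motifs of both genes are in capitals below, on the strand of the gene, and the *Zfp36* window also lies within exons of longer GENCODE transcripts of that gene.
Zfp36, CArG box, chr7:28379267-28379296, minus strand: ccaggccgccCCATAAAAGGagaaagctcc
Zfp36, EGR site, chr7:28379315-28379343, minus strand: gagctacgccGCGGGGGCGcgtcccggaa
Btg2, cyclic AMP response element, chr1:134079304-134079331, minus strand: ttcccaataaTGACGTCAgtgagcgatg
Btg2, EGR site, chr1:134079268-134079296, minus strand: cgcctgggagGCGCGGGCGagctggcggg
None of these 3 motifs was found in the windows of *Zfp36l1*, *Btg1*, *Btg3*, *Tob1*, or *Tob2*. An ETS site was found in *Zfp36* (12.0% of windows), an AP-1 site in *Zfp36l1* (6.75%), a FOXO site in *Btg1* (3.16%), and further half-sites in *Btg1* and *Tob1* (17.7%). A match is a description of the sequence, and the activity of these promoters was not measured.

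In cells with full-length IR, insulin raised 5 of the 8 genes within 15 min and lowered none, with a call at an adjusted p below 0.05 (edgeR's quasi-likelihood test, Benjamini-Hochberg adjustment over all tested genes). Of all tested genes, 1.87% were called in the same comparison. The response divided the members by size. *Zfp36* and *Btg2* rose several-fold, *Zfp36l1*, *Zfp36l2*, and *Btg1* rose 1.14- to 1.30-fold, and *Btg3*, *Tob1*, and *Tob2* did not pass the test. Only *Zfp36* and *Btg2* were called against a minimum fold of 1.5 (glmTreat), which called 0.221% of all genes. Values are CPM, read counts relative to the TMM-scaled library size, and fold changes are from the fitted model.

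*Zfp36* (ENSMUSG00000044786, chr7:28376784-28380253, minus strand) was at 14.7, 11.4, and 12.7 CPM in the basal IR libraries and at 94.2, 97.0, and 99.3 CPM after insulin. All insulin-treated libraries were thus far above all basal ones. The increase was 7.46-fold (log2 fold change 2.90 ± 0.0612 SE, adjusted p = 2.42e-28), which placed *Zfp36* 21st among all tested genes by log2 fold change. The ∆CT receptor gave the same picture, with 10.01, 10.7, and 10.8 CPM in the basal state and 75.9 and 79.8 CPM with insulin (7.42-fold, log2 fold change 2.89, adjusted p = 7.72e-27). In K1030R cells the basal libraries held 11.6, 10.1, and 11.8 CPM and the insulin libraries 11.9, 12.3, and 10.97 CPM, and the ranges overlapped. The log2 fold change there was 0.08, with a 95% interval from -0.09 to 0.24 (adjusted p = 0.976). JMO cells showed a small rise from 13.4, 14.7, and 14.0 CPM to 21.6, 20.2, and 22.5 CPM, without overlap (1.53-fold, log2 fold change 0.61, adjusted p = 5.44e-07).

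*Btg2* (ENSMUSG00000020423, chr1:134075170-134079120, minus strand), which encodes an antiproliferative deadenylase-binding protein, followed the same order of lines. In IR cells it went from 23.1, 23.5, and 21.1 CPM to 125.2, 124.9, and 124.8 CPM, a 5.54-fold increase (log2 fold change 2.47 ± 0.0456 SE, adjusted p = 5.93e-30) and the 30th largest of all tested genes. The insulin-treated libraries lay within less than 1 CPM of each other. In ∆CT cells it rose 5.57-fold, from 19.3, 20.3, and 19.0 CPM to 104.7 and 113.3 CPM (adjusted p = 1.35e-28). In JMO cells it rose 1.41-fold, from 31.1, 32.1, and 30.3 CPM to 44.5, 43.4, and 44.2 CPM (log2 fold change 0.50, adjusted p = 1.03e-08). K1030R cells held 23.0, 24.5, and 21.4 CPM without and 24.5, 24.9, and 25.5 CPM with insulin, ranges that overlapped slightly. Their log2 fold change of 0.12 had a 95% interval from 0.01 to 0.23 and did not pass the test (adjusted p = 0.758).

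*Zfp36l1* (ENSMUSG00000021127, chr12:80107754-80113013, minus strand), a relative of *Zfp36*, rose in all 4 receptor lines, by a small amount. In IR cells it went from 119.7, 113.8, and 109.8 CPM to 140.9, 146.8, and 148.1 CPM (1.27-fold, adjusted p = 1.42e-08). The ∆CT libraries rose from 122.3, 116.4, and 116.0 CPM to 161.3 and 152.6 CPM (1.33-fold, adjusted p = 2.42e-09), and the JMO libraries from 155.5, 156.5, and 156.4 CPM to 188.8, 188.9, and 198.2 CPM (1.23-fold, adjusted p = 8.38e-07). *Zfp36l1* was the only one of the 8 genes called in K1030R cells, where it went from 115.7, 114.4, and 122.3 CPM to 134.0, 133.8, and 140.0 CPM (1.16-fold, log2 fold change 0.21, adjusted p = 0.00269). In each line every insulin-treated library was above every basal one. The K1030R call was lost without basal replicate 2 (log2 fold change 0.19, adjusted p = 0.0506) and without insulin replicate 3 (0.19, adjusted p = 0.0557).

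*Zfp36l2* (ENSMUSG00000045817, chr17:84183931-84187947, minus strand), the third expressed gene of this family, rose in the 3 lines other than K1030R. It went from 121.1, 110.8, and 99.0 CPM to 138.5, 139.3, and 153.8 CPM in IR cells (1.30-fold, adjusted p = 0.00201), and from 106.2, 116.6, and 105.9 CPM to 153.2 and 144.1 CPM in ∆CT cells (1.36-fold, adjusted p = 0.00135). In JMO cells it went from 133.1, 131.9, and 121.7 CPM to 160.6, 168.0, and 163.0 CPM (1.27-fold, adjusted p = 0.015). These groups did not overlap in any of the 3 lines. The JMO call was lost in 5 of the 6 fits that left out a JMO library, with the adjusted p reaching 0.0919 without basal replicate 3, and the IR call was lost when only the IR libraries were fitted (adjusted p = 0.0578). In K1030R cells the libraries overlapped, at 125.5, 111.6, and 116.3 CPM without and 129.8, 117.3, and 115.7 CPM with insulin (log2 fold change 0.04, 95% interval -0.10 to 0.18).

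*Btg1* (ENSMUSG00000036478, chr10:96617006-96622809, plus strand), the closest relative of *Btg2*, was called in IR cells, where it went from 114.3, 115.8, and 106.2 CPM to 124.3, 126.4, and 132.1 CPM (1.14-fold, log2 fold change 0.19, adjusted p = 0.00286). The call was lost when only the IR libraries were fitted (adjusted p = 0.0507). Its ∆CT libraries did not overlap either, at 121.2, 120.7, and 109.1 CPM against 130.9 and 128.6 CPM (log2 fold change 0.15, 95% interval 0.07 to 0.23, adjusted p = 0.085). This difference passed with no low-count filter (adjusted p = 0.0448), with a filter of at least 10 counts in 4 libraries (0.0467), without IR basal replicate 3 (0.0429), and without ∆CT basal replicate 1 (0.049). The log2 fold change was 0.08 in K1030R and 0.05 in JMO cells, and neither passed. Its insulin effect did not differ between IR cells and any mutant line beyond the threshold.

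Insulin left the other 3 genes without a call in every line. *Btg3* (ENSMUSG00000022863, chr16:78332637-78377192, minus strand), an antiproliferative relative of *Btg1* and *Btg2*, had log2 fold changes of 0.09, 0.02, -0.02, and 0.05 in cells with IR, K1030R, ∆CT, and JMO. *Tob1* (ENSMUSG00000037573, chr11:94211454-94215495, plus strand), which links poly(A)-binding protein to the deadenylases as its close relative *Tob2* does, had 0.05, -0.07, 0.09, and 0.04 in the same order. *Tob2* (ENSMUSG00000048546, chr15:81848272-81858796, minus strand) had a log2 fold change of 0.00 in IR cells (95% interval -0.08 to 0.08), and 0.08 and -0.02 in ∆CT and JMO cells. In K1030R cells its 3 insulin libraries, at 62.8, 62.1, and 59.8 CPM, all lay below the basal ones, at 67.8, 70.6, and 66.8 CPM, but the difference did not pass (log2 fold change -0.15, adjusted p = 0.234). The widest of the 95% intervals of these 3 genes in IR cells ran from -0.03 to 0.21, on the log2 scale.

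**Figure D1:**
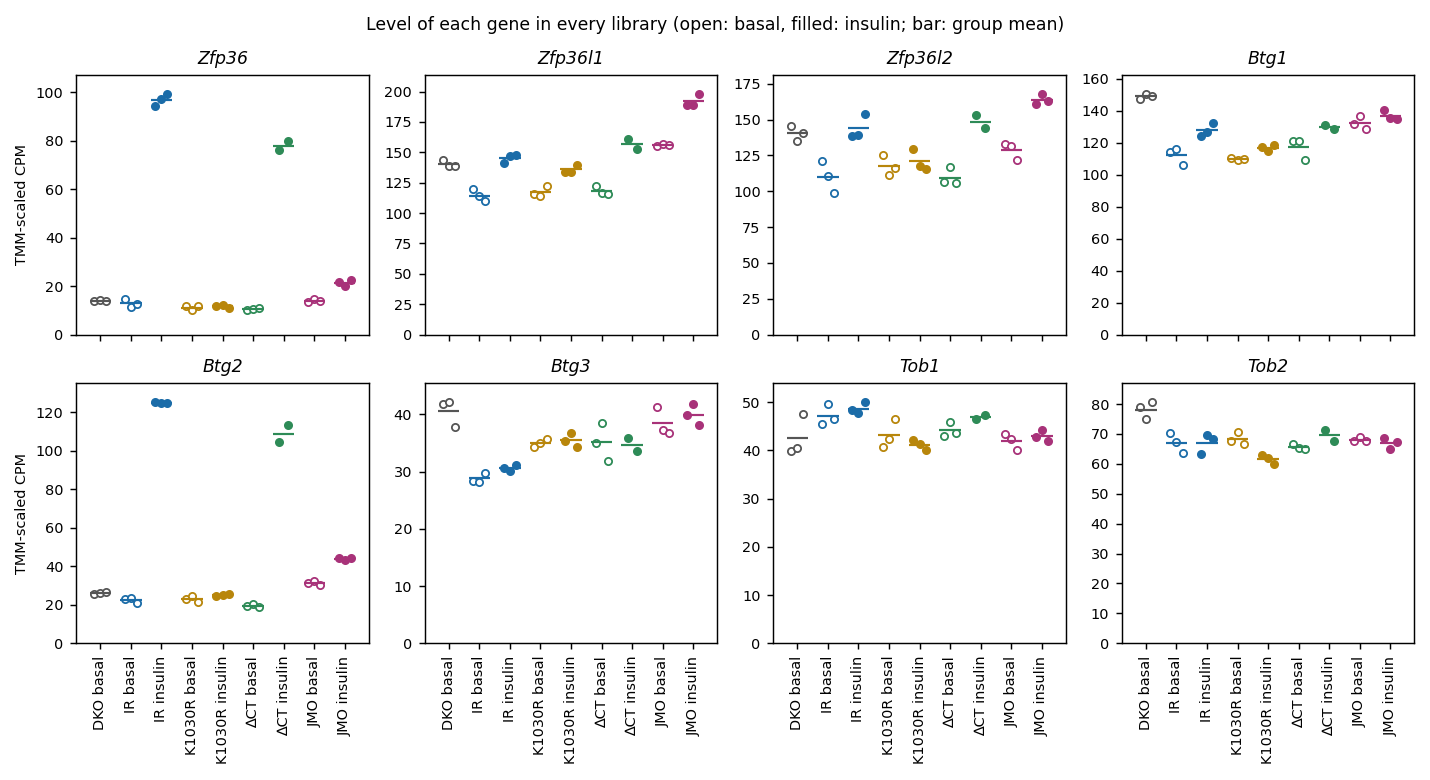
The plots of levels by library show each gene's TMM-scaled CPM (vertical axes, from 0) in the 9 groups, with open points for basal and filled points for insulin-treated libraries and a bar at each group mean. *Zfp36* and *Btg2* stand far above basal with insulin in IR and ∆CT cells and slightly above in JMO cells, while the 3 genes *Btg3*, *Tob1*, and *Tob2* show no such step.

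By line, insulin called 5 of the 8 genes in IR cells, 1 in K1030R cells, 4 in ∆CT cells, and 4 in JMO cells, all of them higher. The share of all tested genes called was 1.87%, 0.156%, 1.01%, and 0.364%, respectively. Against the minimum fold of 1.5, 2 members were called in IR and 2 in ∆CT cells (0.221% and 0.214% of all genes), and 0 in K1030R and 0 in JMO cells (0% and 0.039% of all genes), where 0 members also had an unadjusted p below 0.05 in glmTreat and 0 were counted with DESeq2 or limma. The median log2 fold change over the 8 genes was 0.26, 0.06, 0.28, and 0.18 for IR, K1030R, ∆CT, and JMO, beside a median of all genes within 0.02 of 0 in each line. Groups did not overlap for 6, 3, 7, and 4 members, again in that order, where 16.2%, 12.5%, 23.4%, and 13.7% of all genes did not overlap.

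**Figure D2:**
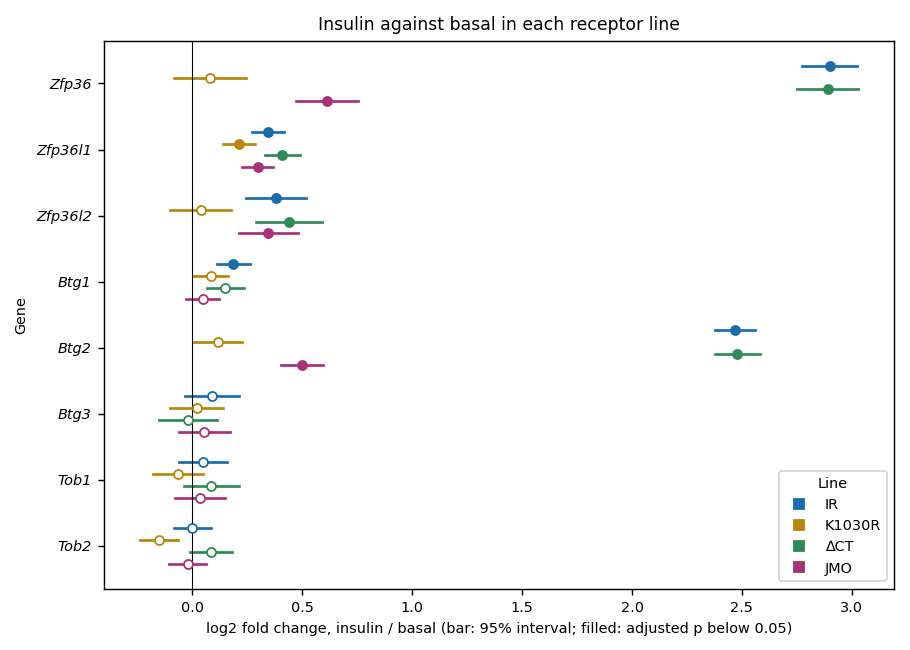
The plot of insulin effects shows the log2 fold change of insulin over basal (horizontal axis) for each gene in the 4 receptor lines, with 95% intervals from the fitted model and filled points where the adjusted p was below 0.05. The IR and ∆CT points of *Zfp36* and *Btg2* lie between 2.47 and 2.90, those of JMO at 0.61 and 0.50, and those of K1030R at 0.08 and 0.12.

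The differences of insulin effects between lines were tested directly as contrasts in the same model. *Zfp36* and *Btg2* responded less in K1030R than in IR cells, by a log2 difference of -2.82 ± 0.104 SE (adjusted p = 1.80e-20) and -2.35 ± 0.0712 SE (adjusted p = 6.36e-23), and these were the 2 members called among 0.370% of all genes. They were also the 2 called for JMO against IR cells (0.279% of all genes), with log2 differences of -2.29 (adjusted p = 7.41e-19) and -1.97 (adjusted p = 1.84e-21). The response of *Btg2* was larger in JMO than in K1030R cells, by 0.38 (95% interval 0.24 to 0.53, adjusted p = 0.0262), 1 member among 0.026% of all genes. The same difference for *Zfp36* was 0.53 (0.32 to 0.75) and narrowly missed the threshold (adjusted p = 0.0586). It passed with no low-count filter (0.000722) and without IR basal replicate 1 (0.0164), IR basal replicate 2 (0.023), or K1030R basal replicate 2 (0.0212), and its adjusted p reached 0.431 under other alternatives. The *Btg2* call rested on the fit of all 9 groups, as it was lost when only the 4 groups concerned were fitted (adjusted p = 0.0711), with DESeq2 (0.0731), with limma voom (0.0595), and without any of 10 of the 12 K1030R or JMO libraries, with the adjusted p reaching 0.264 without K1030R basal replicate 2.

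Removal of the C-terminus made no detectable difference to any of the 8 responses (0 called by edgeR's quasi-likelihood test, 0 with DESeq2 and limma, and 0 at an unadjusted p below 0.05, while 0.00649% of all genes were called). The ∆CT minus IR difference was -0.01 for *Zfp36* (95% interval -0.21 to 0.19) and 0.01 for *Btg2* (-0.13 to 0.15). The levels reached nevertheless differed between these lines, since *Zfp36* was at 75.9 and 79.8 CPM in ∆CT against 94.2 to 99.3 CPM in IR cells with insulin, and its basal level was also lower. For the smaller responses, *Zfp36l1* and *Zfp36l2* differed between JMO and IR cells by -0.05 (-0.15 to 0.06) and -0.04 (-0.23 to 0.16). The difference between K1030R and IR cells was -0.13 for *Zfp36l1* (-0.24 to -0.03, adjusted p = 0.516) and -0.34 for *Zfp36l2* (-0.54 to -0.15, adjusted p = 0.218), neither of which passed in the fit of all groups. The *Zfp36l2* difference did pass with DESeq2 (-0.35, adjusted p = 0.0149), with no low-count filter (-0.34, 3.00e-06), and without IR basal replicate 1 (-0.42, 0.0255), so that this call depended on the tool and the filter. Lower responses in K1030R than in IR cells were called under every alternative for *Zfp36* and *Btg2*, and under none for *Zfp36l1* or *Btg1*.

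In CPM rather than fold, the gain with insulin favored the same pair when the receptor was IR or ∆CT, though not when it was JMO. Mean gains in IR cells were 84.0 CPM for *Zfp36* and 102.4 CPM for *Btg2*, against 30.8 CPM for *Zfp36l1* and 33.6 CPM for *Zfp36l2*. In JMO cells *Zfp36* gained 7.41 CPM and *Btg2* 12.9 CPM, whereas *Zfp36l1* gained 35.8 CPM and *Zfp36l2* 34.95 CPM, close to their gains in IR cells.

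Levels of different genes were compared per kilobase of the longest coding transcript, so that the shares below depend on that length, and a shorter form in use would raise the share of its gene. *Zfp36* was a minor transcript of its family in the basal state, with 6.22% ± 0.598 (SD, n = 3) of the summed CPM per kilobase in IR cells, and *Zfp36l1* (51.7%) and *Zfp36l2* (42.1%) made up the rest. With insulin its share rose to 28.0% ± 0.292 in IR cells, and in ∆CT cells from 5.07% ± 0.263 to 22.8% ± 1.33 (n = 2). In JMO cells the share moved from 5.36% ± 0.243 to 6.49% ± 0.308, and in K1030R cells it was 5.20% ± 0.257 and 5.02% ± 0.331. The summed level of the 3 genes in CPM per kilobase went from 74.1 ± 5.19 to 124 ± 4.31 in IR cells, from 74.3 ± 1.57 to 123 ± 2.90 in ∆CT cells, and from 93.8 ± 1.73 to 118 ± 2.09 in JMO cells. JMO cells thus came to a summed level near that of IR cells by way of *Zfp36l1* and *Zfp36l2*, from a higher basal level.

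Among the BTG and TOB transcripts, *Btg1* was the most abundant per kilobase in the basal state, with 29.1% ± 0.524 of the sum in IR cells, and *Btg2* the least, with 10.7% ± 0.288. Per kilobase, insulin made *Btg2* the most abundant of the 5 in IR cells (38.4% ± 0.614) and in ∆CT cells (34.7% ± 1.65, n = 2). *Btg1* was then at 21.5% and 22.7%. This order rests on the division by length. In CPM, the mean of *Btg1* with insulin stayed above that of *Btg2*, at 127.6 against 125 in IR and 129.8 against 109 in ∆CT cells. In JMO cells *Btg2* went from 13.3% ± 0.231 to 17.5% ± 0.292, and *Btg1* stayed first, at 29.8%. In K1030R cells *Btg2* was at 10.8% ± 0.747 and 11.8% ± 0.337.

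**Figure D3:**
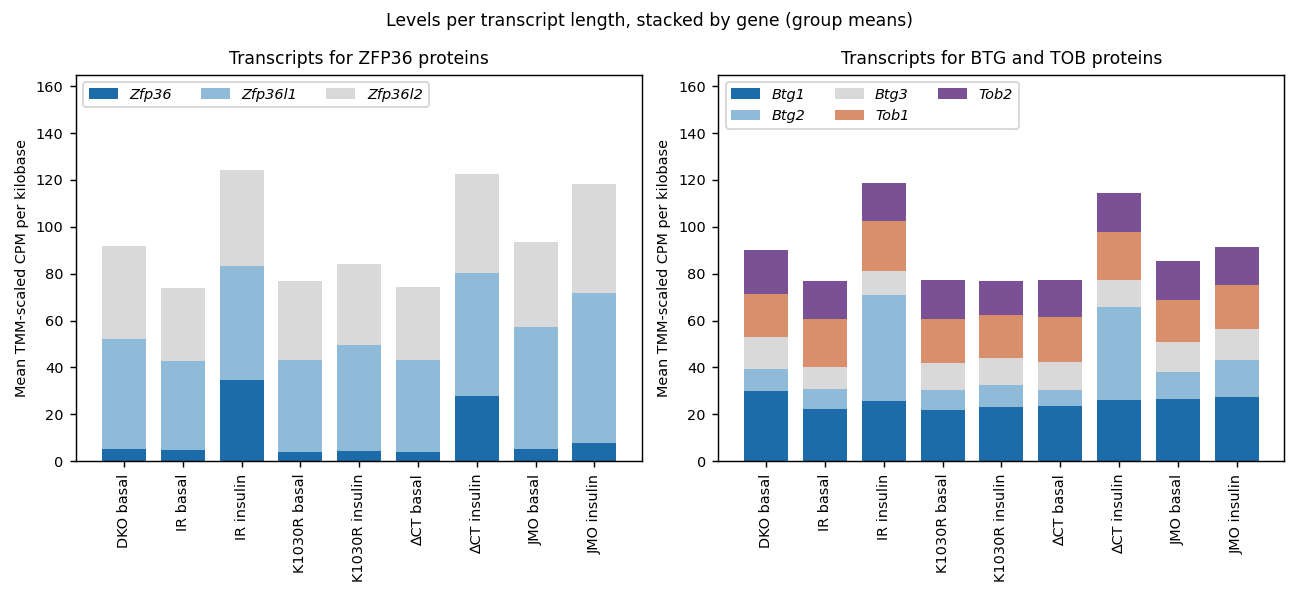
The stacked bars give mean CPM per kilobase for the ZFP36 genes and for the BTG and TOB genes in the 9 groups. The *Zfp36* segment is 4.62 CPM per kilobase in basal IR cells and 34.7 with insulin, and the *Btg2* segment 8.23 and 45.6.

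Without insulin, most of the 8 genes were lower in the lines with IR, K1030R, or ∆CT than in DKO cells, by modest amounts. Against DKO, 7 of 8 were called in IR cells (6 lower, and *Tob1* higher), 7 in K1030R cells (all lower), and 7 in ∆CT cells (all lower), whereas JMO cells had 4 (*Zfp36l1* and *Btg2* higher, *Btg1* and *Tob2* lower). These comparisons share the DKO libraries. Basal differences between lines were common, since 49.8%, 41.6%, 46.3%, and 34.3% of all genes were called for IR, K1030R, ∆CT, and JMO cells, respectively. The median log2 fold change of the 8 genes was -0.26, -0.23, -0.30, and -0.05 in the same order, while that of all genes lay within 0.02 of 0. In bulk RNA, a lower level in all cells and fewer cells that express the gene cannot be told apart.

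*Btg1* and *Btg3* showed the largest decreases in IR cells. *Btg1* was at 147.0, 150.5, and 149.4 CPM in DKO cells, above every library of the 8 other groups. Its log2 fold changes against DKO were -0.41, -0.44, -0.35, and -0.17 for IR, K1030R, ∆CT, and JMO, with adjusted p values of 1.98e-11, 6.38e-12, 9.33e-10, and 0.000354 by edgeR's quasi-likelihood test. *Btg3* was at 41.9, 42.1, and 37.8 CPM in DKO cells and at 28.4, 28.2, and 29.8 CPM in IR cells (log2 fold change -0.49, adjusted p = 1.35e-08), and JMO cells, at 41.4, 37.2, and 36.8 CPM, overlapped the DKO range. Its decrease in ∆CT cells (-0.20, adjusted p = 0.00403) was lost without ∆CT basal replicate 3 (-0.14, 0.0579). It was also lower in IR than in each mutant line (log2 fold change of K1030R, ∆CT, and JMO over IR 0.28, 0.29, and 0.42). *Cxadr*, which overlaps *Btg3* on the opposite strand, ranged from 8.36 to 19.7 CPM and was also lower in IR cells (mean 9.36 CPM basal) than in JMO cells (17.7 CPM). The authors describe the reads as reverse-stranded, but whether the counting used the strand was not stated. The part of *Cxadr* reads in the *Btg3* value was not tested.

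*Zfp36l1* and *Btg2* were the 2 members that JMO cells held above DKO cells. *Zfp36l1* was at 144.0, 138.4, and 139.0 CPM in DKO, 109.8 to 119.7 CPM in IR, and 155.5 to 156.5 CPM in JMO cells, without overlap between the 3 lines (JMO over DKO log2 fold change 0.15, adjusted p = 0.000766, and IR over DKO -0.29, adjusted p = 1.46e-08). *Btg2* was at 25.8, 25.97, and 26.7 CPM in DKO, 21.1 to 23.5 CPM in IR, 19.0 to 20.3 CPM in ∆CT, and 30.3 to 32.1 CPM in JMO cells, and these did not overlap either. Its decrease in K1030R cells (log2 fold change -0.19, adjusted p = 0.0047) was lost without K1030R basal replicate 3 (adjusted p = 0.0608).

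*Zfp36* was low without insulin in every line. It was at 13.8, 14.3, and 13.9 CPM in DKO cells and fell by 0.33 on the log2 scale in K1030R (adjusted p = 0.000764) and by 0.42 in ∆CT cells (adjusted p = 3.88e-05), while IR cells, at 11.4 to 14.7 CPM, and JMO cells, at 13.4 to 14.7 CPM, overlapped the DKO range. Against IR it was lower in K1030R (-0.22, adjusted p = 0.0316) and ∆CT cells (-0.31, adjusted p = 0.00358). Both calls depended on IR basal replicate 1, without which the values were -0.11 (adjusted p = 0.376) and -0.20 (0.0947), and the K1030R call was also lost without K1030R basal replicate 2 (-0.15, adjusted p = 0.206). With only the groups compared, both calls were lost as well (adjusted p = 0.158 and 0.0695). The K1030R call was further lost with no low-count filter (adjusted p = 0.052), DESeq2 (0.0764), and limma voom (0.054). Without IR basal replicate 1, *Zfp36* was also called lower in IR than in DKO cells (-0.22, adjusted p = 0.021) and higher in JMO than in IR cells (0.22, 0.025). *Zfp36l2*, at 135.1 to 145.7 CPM in DKO cells, was lower in IR (-0.35), K1030R (-0.26), and ∆CT cells (-0.36).

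*Tob2*, like *Btg1*, was called lower than in DKO cells in all 4 receptor lines. It went from 78.9, 74.96, and 80.6 CPM in DKO cells to group means of 67.1, 68.4, 65.6, and 68.1 CPM in IR, K1030R, ∆CT, and JMO cells (log2 fold change -0.22, -0.19, -0.25, and -0.20). The K1030R, ∆CT, and JMO ranges each overlapped that of IR cells, 63.6 to 70.3 CPM. *Tob1* varied little between lines, with basal means from 41.9 CPM in JMO to 47.2 CPM in IR cells. Its call as higher in IR than in DKO cells (0.14, adjusted p = 0.0373) sat beside overlapping ranges, 45.5 to 49.6 CPM against 39.8 to 47.6 CPM. This call was lost without DKO replicate 1 (0.09, adjusted p = 0.231), DKO replicate 2 (0.10, 0.184), IR basal replicate 2 (0.10, 0.181), or JMO insulin replicate 2 (0.12, 0.0814). Other losses came with RLE factors (adjusted p = 0.064), a filter of at least 10 counts in 4 libraries (0.0606), DESeq2 (0.108), and only the groups compared (0.121).

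**Figure D4:**
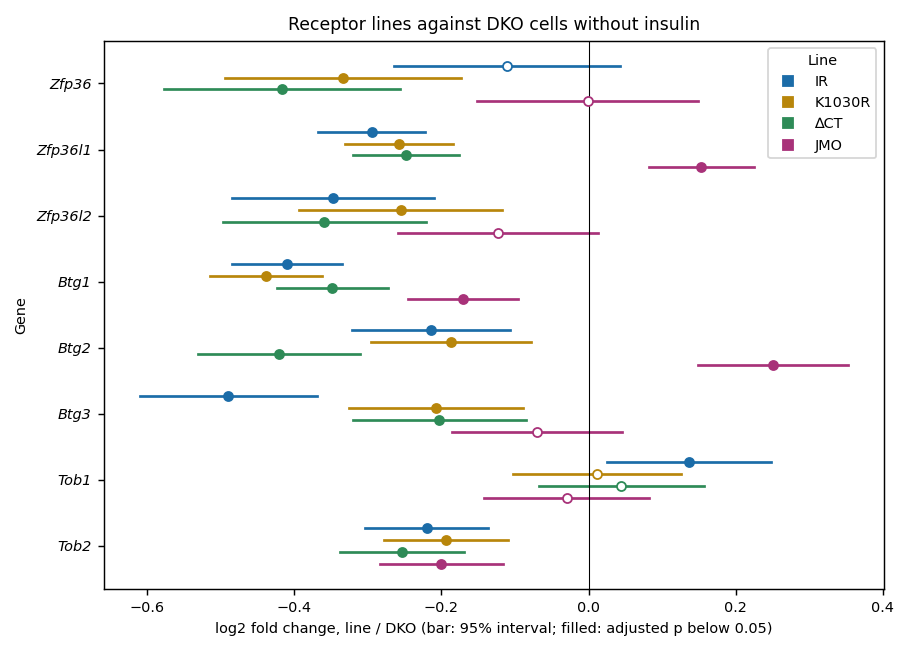
The plot of basal differences shows the log2 fold change of each receptor line over DKO cells (horizontal axis), with 95% intervals and filled points where the adjusted p was below 0.05. Points for IR, K1030R, and ∆CT lie left of 0 for every gene but *Tob1*, and JMO points lie from -0.20 for *Tob2* to 0.25 for *Btg2*.

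Between receptor lines without insulin, K1030R cells differed from IR cells in 2 members (*Zfp36* lower, *Btg3* higher, 30.2% of all genes called), ∆CT cells in 3 (*Zfp36* and *Btg2* lower, *Btg3* higher, 26.1% of all genes), and JMO cells in 6 (42.4% of all genes). In JMO cells *Zfp36l1*, *Btg2*, *Btg3*, *Btg1*, and *Zfp36l2* were higher than in IR cells, by 0.45, 0.46, 0.42, 0.24, and 0.22 on the log2 scale, and *Tob1* was lower (-0.17, adjusted p = 0.0131). The *Zfp36l2* call was lost without IR basal replicate 3 (0.15, adjusted p = 0.0567), and the *Tob1* call without IR basal replicate 2 (-0.13, adjusted p = 0.0879) or JMO basal replicate 3 (-0.14, 0.0783). Calls were gained for *Tob1* as lower in K1030R than in IR cells without DKO replicate 3 (-0.12, adjusted p = 0.0461) or K1030R basal replicate 3 (-0.18, 0.0246), and for *Btg1* as higher in ∆CT than in IR cells without ∆CT basal replicate 3 (0.11, 0.0227).

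Over all 9 groups, the order of levels also separated the members. *Zfp36* ran from IR with insulin (96.9 CPM) through ∆CT with insulin (77.8) and JMO with insulin (21.4) to the 6 remaining groups, between 14.0 and 10.5 CPM, and only the first 3 groups were each clear of the next. *Btg2* had the same first 3 groups (125, 109, and 44.0 CPM), followed by basal JMO (31.2 CPM) and DKO cells (26.2 CPM), each clear of the next. *Zfp36l1* and *Zfp36l2* were instead highest in JMO cells with insulin (192 and 164 CPM), *Btg1*, *Btg3*, and *Tob2* in DKO cells (149, 40.6, and 78.1 CPM), and *Tob1* in IR cells with insulin (48.7 CPM). For *Btg3* and *Tob1* the highest group overlapped the next.

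By Pearson correlation of log2 CPM over the 26 libraries, which share lines and treatments, the genes most like *Zfp36* were *Btg2* (r = 0.986), *Ier2* (0.984), and *Arc* (0.980), and those most like *Btg2* were *Junb* (0.987), *Zfp36*, and *Fos* (0.984). The pattern of *Zfp36l1* was most like those of *Clcf1*, the gene ENSMUSG00000097629, and *Ch25h* (0.921, 0.921, and 0.908), and that of *Zfp36l2* like those of *Nfkbiz*, *Prpf38b*, and *Hbegf* (0.915, 0.895, and 0.865). *Btg1* was nearest to *Arl4c*, *Dusp6*, and *Il13ra2* (0.937, 0.898, and 0.885), and *Btg3* to *Fgf7*, *Slc22a23*, and *Stk24* (0.941, 0.939, and 0.932). *Tob1* and *Tob2* had no such close companion, with *Pld1*, *Stk11ip*, and *Cblb* (0.816, 0.798, and 0.767) and *Rab35*, *Fbxo30*, and *Hk1* (0.828, 0.821, and 0.780) nearest. Among the members, *Zfp36l1* and *Zfp36l2* correlated at r = 0.864, and *Zfp36* with *Zfp36l1* at 0.423.

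No gene of the machinery that these proteins recruit passed the test for insulin. None of 16 genes for deadenylases and poly(A)-binding proteins, 16 for decapping and 5′-to-3′ decay, 14 tested of 15 for the exosome and SKI complex, or 15 for kinases and adaptors of ZFP36 proteins was called in any of the 4 lines (edgeR's quasi-likelihood test). Of these 61 genes, 5 had an unadjusted p below 0.05 in IR cells and 4 in each of the other lines. Among all 15402 tested genes, such p-values numbered 2261 for IR, 937 for K1030R, 1477 for ∆CT, and 1079 for JMO. Calls were rare at large, at 1.87%, 0.156%, 1.01%, and 0.364% of tested genes, with lines in that order. The lack of a call among 61 genes therefore does not set the machinery apart. In IR cells the median log2 fold changes of the 4 lists were 0.01, -0.00, -0.01, and -0.02, and that of all genes was -0.01. Among 18 tested of 19 other 3′ UTR-binding regulators, *Zc3h12c*, a gene related to the RNase regnase-1, was called in IR cells (0.21, adjusted p = 0.0415), and none in the other lines. *Zfp36l3* and *Btg4*, the remaining members of the 2 families, did not pass the low-count filter.

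Transcripts with AU-rich elements that ZFP36 proteins are known to bind included several that rose together with *Zfp36*. Of 14 tested of 19, 6 were higher in IR cells (*Fos*, *Ier3*, *Ptgs2*, *Myc*, *Cxcl1*, and *Vegfa*), 1 in K1030R cells (*Ier3*), 5 in ∆CT cells, and 3 in JMO cells, and none was lower, where 1.87%, 0.156%, 1.01%, and 0.364% of all genes were called. Their median log2 fold change was 0.39, 0.13, 0.36, and 0.17 in IR, K1030R, ∆CT, and JMO cells. This list was chosen with earlier results of these data known. The authors had already named *Fos* and *Ier3* among the genes raised by insulin in them. The counts therefore describe the listed genes and do not test whether ZFP36 targets respond. *Fos*, an AP-1 subunit, went from 4.37 ± 0.81 to 93.6 ± 4.06 CPM (SD, n = 3) in IR cells, a log2 fold change of 4.41. *Ier3*, an early-response gene, rose by 1.68, and *Ptgs2*, which encodes cyclooxygenase-2, by 1.64, and these 3 also passed the minimum fold in ∆CT cells (5.20, 1.90, and 1.66). *Fos* (1.17) and *Ier3* (0.57) were called in JMO cells as well, whereas *Ptgs2* was not (0.25, adjusted p = 0.262).

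**Figure D5:**
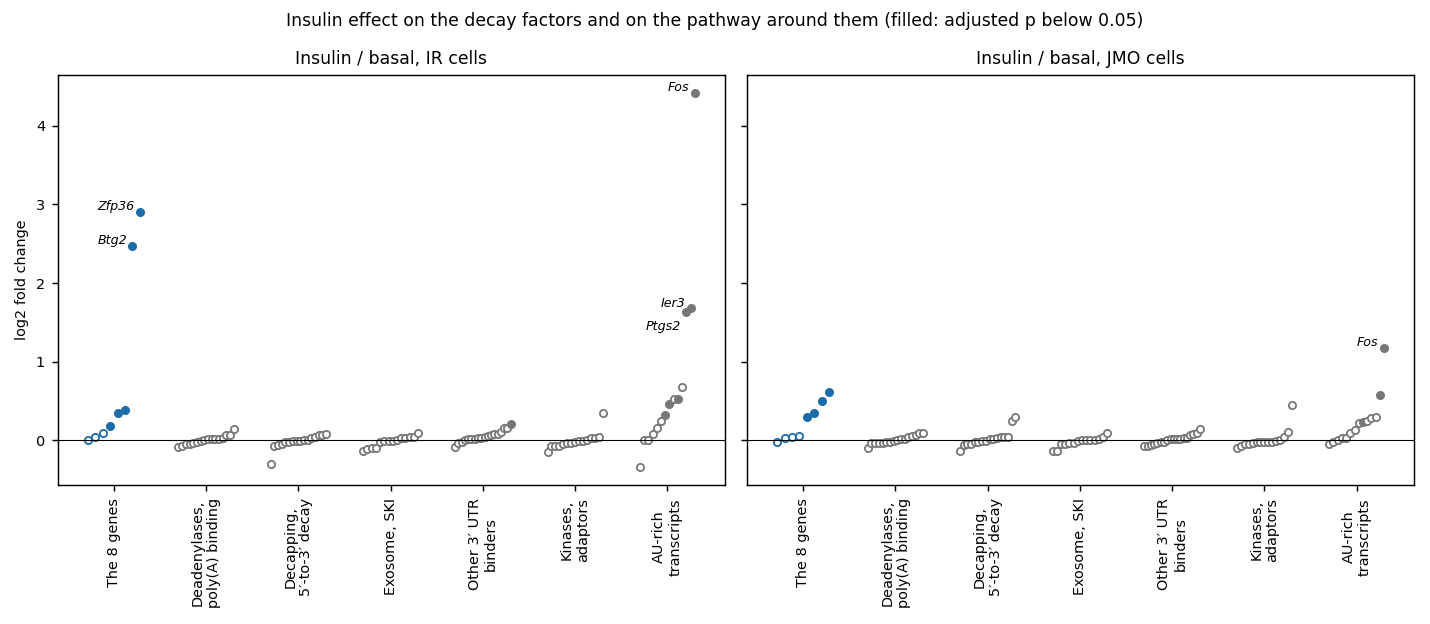
The strips show the log2 fold change of insulin over basal (vertical axis) for the 8 genes and for the tested genes of 6 lists, in IR cells on the left and JMO cells on the right, with filled points where the adjusted p was below 0.05. In IR cells, *Zfp36* (2.90), *Btg2* (2.47), and 3 AU-rich transcripts stand apart, and the machinery lists stay near 0.

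Without insulin the same AU-rich transcripts were mostly lower in IR than in DKO cells, with 10 of 14 lower and 2 higher (median log2 fold change -0.81), 10 and 3 in K1030R, 11 and 3 in ∆CT, and 4 and 2 in JMO cells, where 49.8%, 41.6%, 46.3%, and 34.3% of all genes were called. The largest in IR cells were *Il6* (-2.85), *Nos2* (-1.95), and *Ccnd1* (-1.59), of which *Il6* was scarce, at 2.48 CPM in DKO and 0.343 CPM in basal IR cells, and passed the low-count filter through the lines in which it was higher. *Zc3h12a*, which encodes regnase-1, another protein that degrades inflammatory messenger RNAs, fell from 57.5 ± 2.13 CPM in DKO to 21.7 ± 0.807 CPM in IR cells (SD, n = 3, log2 fold change -1.41), and its fold change was -0.84 in K1030R, -0.96 in ∆CT, and 0.11 (adjusted p = 0.131) in JMO cells. *Cpeb2* (-0.72) and *Zc3h12c* (-0.45) were next among the 3′ UTR-binding regulators, of which 3 were higher and 6 lower. The counts of called deadenylase, decapping, and exosome genes, like that of the regulators, were near the 49.8% of all genes called and say nothing particular of these lists. Deadenylase and poly(A)-binding genes had 4 higher and 5 lower, the largest being *Cnot8* (0.18), *Pan2* (-0.16), and *Cnot11* (-0.16). Decapping genes had 2 higher and 4 lower, led by *Dcp2*, the decapping enzyme (-0.29), *Lsm4* (0.24), and *Lsm3* (-0.20), and exosome and SKI genes 1 higher and 7 lower, led by *Dis3*, an exosome nuclease (-0.43), *Exosc1* (-0.37), and *Exosc2* (-0.34). Of the kinases and adaptors, 4 were higher and 9 lower, with *Mapkapk3* (0.52), *Rps6ka1* (0.51), and *Mapk11* (0.46) the largest.

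The 26 libraries held 17228982 to 24694828 counts each, and the common biological coefficient of variation, a single value fitted for all genes, was 4.44%. Of 9 preadipocyte markers, 6 passed the filter, with a summed level of 785 to 891 CPM, and *Dlk1*, *Ebf2*, and *Zfp423* did not pass. The sum does not show that single markers differed between lines. Against DKO without insulin, 2 were higher and 4 lower in IR cells, 1 and 3 in K1030R, 2 and 2 in ∆CT, and 2 and 2 in JMO cells. Of all genes, 49.8%, 41.6%, 46.3%, and 34.3% were called. The log2 fold changes of the 6 ran from -3.33 to 1.81, -3.67 to 1.62, -3.96 to 2.03, and -2.06 to 0.49 in that order. Markers of myoblasts summed to 1.76 to 4.75 CPM (1 of 4 tested, *Myf5* and *Myod1* at 0), and of endothelial cells to 7.01 to 17.6 CPM (1 of 4 tested). Markers of macrophages and leukocytes (2 of 4 tested, *Adgre1* at 0) summed to 13.6 to 15.5 CPM in DKO, 7.90 to 9.77 in basal IR, 6.99 to 7.90 in basal K1030R, 7.02 to 7.44 in basal ∆CT, and 12.0 to 13.9 CPM in basal JMO cells, and those of mature brown adipocytes (1 of 6 tested, *Fabp4*, and *Lep* at 0) to 2.50 to 2.60, 0.598 to 1.09, 0.829 to 2.01, 0.948 to 1.05, and 4.29 to 4.88 CPM in the same order. Both sums were lower in IR, K1030R, and ∆CT than in DKO cells, like most basal levels above, and their part in those levels was not tested. *Fabp4* itself was called lower in IR than in DKO cells (log2 fold change -1.79) and higher in JMO than in IR cells (2.62). Mouse *Insr*, whose counts could include reads of the human receptor, was at 22.3 to 24.8 CPM in DKO libraries and at 65.5 to 99.7 CPM in those of the receptor lines. Mouse *Igf1r* was at 24.7 to 28.6 CPM in DKO libraries and at 29.7 to 35.7 CPM in those of the receptor lines. The authors reported no IR or IGF1R messenger RNA or protein in DKO cells, and the origin of these reads was not tested.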

How the data were processed

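RNA was measured in 26 libraries of 9 groups, assigned from their labels. Per the authors' methods, oligo-dT-selected RNA was sequenced as reverse-stranded single-end reads. These were trimmed (fastp) and counted by pseudoalignment to the Ensembl mouse transcriptome (kallisto, versions not given in the sources used here) before summing by gene. The deposited values are expected counts per gene, neither filtered nor scaled. After rounding, the low-count filter required more than 0.5 CPM in 4 or more libraries, and library sizes were scaled by TMM. All 26 libraries entered a robust quasi-likelihood fit with a mean for each group in edgeR 4.0.16 (R 4.3.3), and p-values were Benjamini-Hochberg adjusted over 15402 genes. glmTreat tested a minimum fold of 1.5. CPM and SD are over libraries, whose independence as cultures is not stated, so that p-values measure the spread between these samples. Totals of 17228982 to 24694828 counts put at least 196 counts behind every member's value.

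The members and 7 gene lists were chosen with earlier results of these data known. The members are all named. List genes are named where they passed the minimum fold with insulin or were among the 3 largest called differences of IR from DKO cells, and other called insulin responders were added after their values were seen. Genes alike in pattern are the 3 with the highest r (log2 CPM, prior count 2). Annotation is GENCODE M21 (GRCm38), with RefSeq promoters (GRCm38.p6). *Gm44710*, antisense to *Zfp36*, was at 0.285 to 0.731 CPM. The scripts were tested on simulated data. Alternatives were RLE factors, other filters, DESeq2 1.42.0, limma 3.58.1, only the groups compared, a replicate block, and leaving out each library. Proteomic data were not analysed here.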

Additional observations from a re-analysis of the deposited data

Results flagged for a closer look

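The insulin effect on 2 members differed between receptor lines in a direct test (edgeR's quasi-likelihood test of the difference, adjusted over all tested genes). For *Zfp36*, the K1030R minus IR difference of log2 fold changes was -2.82 (adjusted p = 1.80e-20) and the JMO minus IR difference -2.29 (adjusted p = 7.41e-19). For *Btg2*, these were -2.35 (adjusted p = 6.36e-23) and -1.97 (adjusted p = 1.84e-21). The comparisons share the IR libraries. *Btg2* also responded more in JMO than in K1030R cells, by 0.38 (adjusted p = 0.0262). Unlike the differences from IR cells, this call was lost in 13 of 34 alternatives, among them DESeq2 (adjusted p = 0.0731) and limma voom (0.0595). The JMO receptor lacks the kinase domain, and the K1030R receptor has an inactive one.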

How the results depend on the processing

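Of 55 member differences called, 42 kept their call under all 34 alternatives and 0 turned direction. The number of members called with insulin was 2 against a minimum fold of 1.5 and 3 with only the groups compared in IR cells, 2 in ∆CT cells and 0 in K1030R and JMO cells against the minimum fold, and 0 to 1 in K1030R cells on leaving out each library. For JMO against K1030R responses it was 3 with no low-count filter, 0 with DESeq2, limma voom, or only the groups compared, and 0 to 2 on leaving out each library. For basal K1030R against IR cells it was 1 with no low-count filter, DESeq2, limma voom, or only the groups compared, and 1 to 3 on leaving out each library, and for basal ∆CT against IR cells 1 with only the groups compared. The causes were not tested. Uncalled differences near 0 that changed sign were *Tob2* with insulin in IR cells (-0.00501 with no low-count filter, -0.000344 with limma voom), *Zfp36* for ∆CT minus IR (0.00594 with no low-count filter), and *Zfp36l2* for basal ∆CT over IR (0.00667 with only the groups compared).

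On leaving out each library, the lowest and highest values of uncalled differences that changed sign were as follows. With insulin, *Tob2* in IR cells ran from -0.0370 to 0.0390, *Zfp36l2* and *Btg3* in K1030R cells from -0.0152 to 0.0851 and -0.00618 to 0.0416, and *Btg3* in ∆CT cells from -0.0861 to 0.0478. For ∆CT minus IR responses, *Zfp36* ran from -0.119 to 0.0693, *Zfp36l2* from -0.0177 to 0.131, *Btg1* from -0.0844 to 0.000249, and *Btg2* from -0.0494 to 0.0702, and for JMO minus IR *Zfp36l2* from -0.112 to 0.0361. Against DKO, *Tob1* ran from -0.0446 to 0.106 in K1030R, -0.00193 to 0.140 in ∆CT, and -0.0746 to 0.0669 in JMO cells, and *Zfp36* from -0.0346 to 0.0344 in JMO cells. Against IR, *Btg2* and *Tob2* ran from -0.0243 to 0.0771 and -0.0103 to 0.0637 in K1030R, *Zfp36l2* and *Tob2* from -0.0842 to 0.0640 and -0.0702 to 0.00392 in ∆CT, and *Tob2* from -0.0168 to 0.0573 in JMO cells.

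Replicate numbers did not pair the samples, since the deviations from group means of libraries with equal numbers correlated with a median of -0.00111 (100 pairs), and at -0.0866 to 0.0865 between basal and insulin within a line. A replicate block left 5 members called with insulin in IR cells and changed no call, and the ∆CT minus IR difference of *Btg2* became -0.000313 with it. With these depths and numbers of libraries, the 95% intervals of the uncalled insulin effects lay between -0.24 and 0.24 on the log2 scale.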
